A study of Mus musculus with 19 samples.

Results

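Cytotoxic lymphocytes, that is natural killer (NK) cells and CD8 T cells, were followed in mouse lung through 10 genes in 18 mice given a mixture of polycyclic aromatic hydrocarbons or its vehicle. The genes were taken as a named list, chosen with earlier results of these data known, and every array probe whose RefSeq accession maps to 1 of their symbols was used. They fell into 5 effector genes (Gzma, Gzmb, Prf1, Ccl5 and Nkg7) and 5 genes for receptors or a transcription factor (Ncr1, Klrb1c, Klrd1, Klre1 and Eomes). The array held 13 probes for them among 55681. Of these, 11 probes, at least 1 for each gene, passed the filter on dim signals and were tested among 30999 probes and 14735 genes with a symbol. The probes left out were the second one of Klrb1c, above background in no mouse, and the second one of Eomes, above background in 1 mouse.

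MutaMouse, a transgenic strain on a BALB/C-DBA/2 background, carries a bacterial reporter gene for mutation assays. All groups were adult male animals of this strain, about 12 weeks old. They were gavaged on 28 consecutive days, and lungs were collected 72 h after the last dose. D0 (5 mice) received the olive oil vehicle, and D1 (4 mice), D2 (5 mice) and D3 (4 mice) received the defined mixture of 8 hydrocarbons at 15, 30 and 60 mg benzo[a]pyrene (BaP) equivalents/kg-bw/day. Each mouse's lung RNA was labelled red and hybridised with a green common reference RNA made from mouse cell lines, and a value is the log2 ratio of lung over reference. Mouse 35 of D3 had 2 arrays, on slides 2 and 3, which were averaged. The labels put mouse 23 in D2, although its number falls among those of D1, a group to which the methods give 1 more mouse. Slides 1 and 2 each held mice of all 4 groups, and on slide 3 D3 was present only through the second array of mouse 35. Array columns were assigned by dose, and the 2 cannot be told apart. The lung was profiled as whole tissue, so fewer cytotoxic cells and less RNA per cell cannot be told apart. General leukocyte and lung markers were measured well: the red signal was above background in all mice for 7 of 7 pan-leukocyte genes, 14 of 16 T cell genes and 10 of 10 epithelial genes.

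A cytotoxic lymphocyte kills by releasing granules toward its target. Perforin opens the target's membrane, granzymes enter and cleave proteins inside, and the cell also secretes chemokines such as Ccl5 that call in other leukocytes. NK cells decide whether to kill by the balance of activating and inhibitory surface receptors, many of them lectin-like receptors from a single gene complex, and their development depends on the T-box transcription factors T-bet and Eomes. The lung holds many circulating, mature NK cells.

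Because the members were followed as a group, the stretch of 250 bases before a transcript start is shown for 5 of them, taken from RefSeq (GRCm38.p6) and written 5′ to 3′ on the gene's strand. Of the 10 genes, 8 had such a sequence, in 10 windows. Some starts lie downstream of the gene's first base. Inside the gene's own span are 85 bases of the Prf1 window, 9 of the second Ncr1 window and 3 of the Eomes window. Both Klre1 windows lie whole inside that gene's span (250 bases each). The capitals mark matches, on either strand, to short cores of 3 families of lymphocyte transcription factors: GGTGTG (T-box), AGGAAG (ETS) and TGTGGT (RUNX). The T-box and RUNX cores can overlap in a shared TGTG.
Gzma, chr13:113100982-113101231, minus strand: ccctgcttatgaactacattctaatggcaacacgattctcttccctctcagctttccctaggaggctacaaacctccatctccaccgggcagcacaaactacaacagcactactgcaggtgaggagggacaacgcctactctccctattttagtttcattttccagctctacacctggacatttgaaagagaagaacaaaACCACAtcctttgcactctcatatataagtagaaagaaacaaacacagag
Gzmb, chr14:56262335-56262584, minus strand: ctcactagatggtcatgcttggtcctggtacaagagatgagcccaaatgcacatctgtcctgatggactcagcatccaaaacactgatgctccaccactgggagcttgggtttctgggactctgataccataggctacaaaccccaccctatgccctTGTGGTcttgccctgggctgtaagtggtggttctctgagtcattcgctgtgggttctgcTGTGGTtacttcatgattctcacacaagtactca
Prf1, chr10:61297586-61297835, plus strand: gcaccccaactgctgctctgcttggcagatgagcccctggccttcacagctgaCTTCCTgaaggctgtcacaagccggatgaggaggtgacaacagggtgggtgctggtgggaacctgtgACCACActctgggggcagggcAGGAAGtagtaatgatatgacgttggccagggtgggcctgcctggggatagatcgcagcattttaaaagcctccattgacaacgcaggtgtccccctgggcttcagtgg
Ncr1, chr7:4337465-4337714, plus strand: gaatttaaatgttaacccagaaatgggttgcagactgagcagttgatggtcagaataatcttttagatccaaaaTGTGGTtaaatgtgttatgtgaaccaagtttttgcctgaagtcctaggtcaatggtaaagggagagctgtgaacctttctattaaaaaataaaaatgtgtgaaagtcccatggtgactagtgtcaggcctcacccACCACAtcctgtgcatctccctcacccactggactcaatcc
Eomes, chr9:118477939-118478188, plus strand: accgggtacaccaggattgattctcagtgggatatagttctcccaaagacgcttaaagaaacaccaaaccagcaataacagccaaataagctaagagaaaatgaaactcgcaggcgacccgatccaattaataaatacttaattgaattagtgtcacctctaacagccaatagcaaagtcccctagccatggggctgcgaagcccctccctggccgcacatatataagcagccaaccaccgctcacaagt
The RUNX core, read as its reverse complement ACCACA in Gzma, Prf1 and Nkg7 and at 1 of 2 places in Ncr1, was in the windows of 7 of the 8 genes (8 of 10 windows) and in 14.0% of all 32851 windows of this length. Eomes was the gene without it. The ETS core was in 4 of the 8 genes and 29.5% of all windows, and the T-box core was in 1 gene, Nkg7, and 16.3% of all windows. In Gzma the only match lay 50 bases before that start, and in Gzmb a pair of RUNX cores began 93 and 34 bases before it. These are matches of letters and were not tested.

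Gzma and Ccl5 fell at every dose, Prf1 fell at the top dose, and no member rose. A gene is said to have fallen or risen where it passed an adjusted p of at most 0.05 (limma, Benjamini-Hochberg over all probes tested) and a change of at least 1.5-fold. At D1, 2 of 10 members fell, beside 0.465% of all probes tested. At D2, 2 of 10 fell, beside 0.19% of all probes. At D3, 3 of 10 fell, beside 1.23% of all probes. By adjusted p without the fold limit, 3, 4 and 5 members were lower at D1, D2 and D3, beside 2.32%, 0.719% and 6.37% of all probes. The shares of probes that rose were 0.594%, 0.435% and 1.21%. All 10 fitted changes were below 0 at each dose, but Ncr1 and Klre1 met the filter on dim signals through D0 alone, which favours a lower value in the dosed groups. The other 8 were below 0 as well, although that of Klrd1 at D2 was -0.03 and went above 0 under median centring and in the red channel alone. The median log2 change of the members was -0.31 at D1, -0.35 at D2 and -0.47 at D3, and that of the 8 without Ncr1 and Klre1 was -0.35, -0.38 and -0.56, where the medians over all genes tested were 0.03, 0.02 and 0.03. The 3 comparisons share the D0 mice. With mouse 23 counted in D1, 3 members fell at D2 and 4 over the dose trend in place of 2 and 3, and the one added at D2 was Prf1 (-0.64, adjusted p = 0.00344). Centring each array on its median in place of loess ended every call against D0 but that of Gzma at D3 (-2.81, adjusted p = 0.00775) and left 1 member called over the trend, although all 10 members stayed below the median of all probes at every dose.

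**Figure D1:**
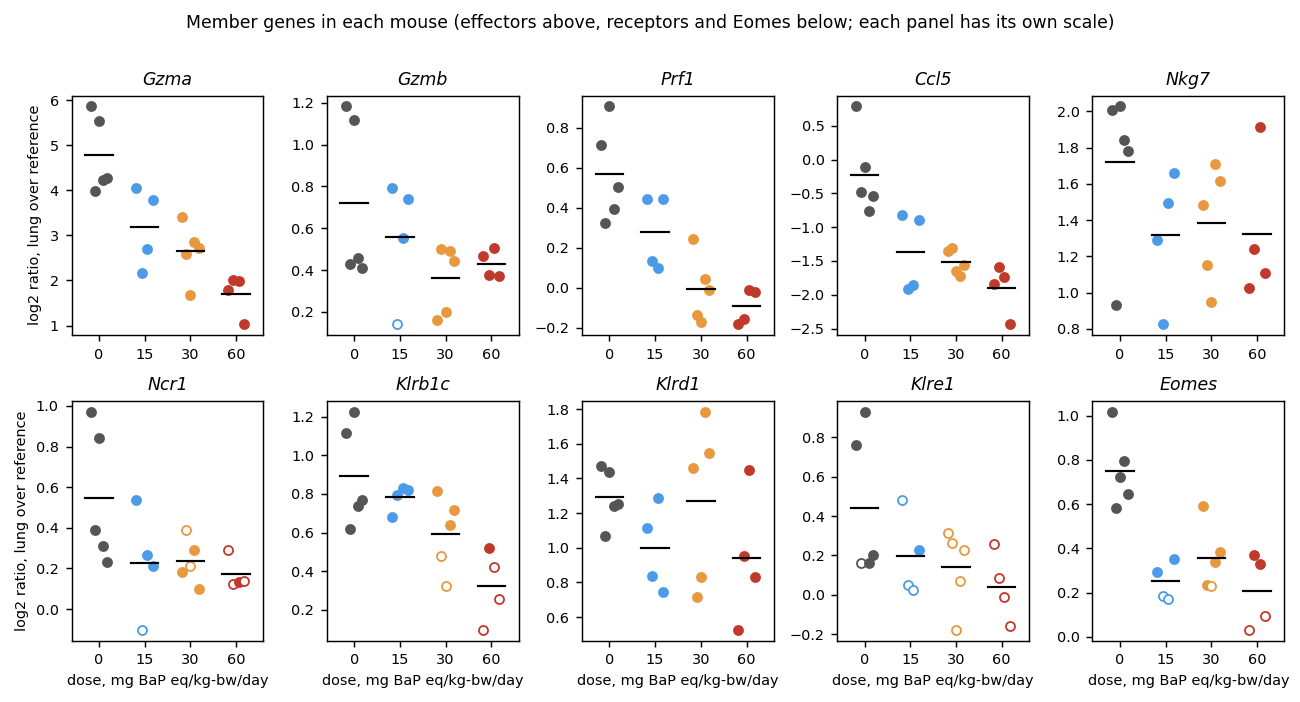
Log2 ratio of lung over reference RNA for the 10 member genes (y axis, a scale for each panel) in each of 18 mice by dose (x axis, mg BaP equivalents/kg-bw/day). Points are mice, filled where the red signal was well above background and open where it was not, and bars are group means. Gzma and Ccl5 step down from D0 to D3, and the open points gather in the dosed groups of Ncr1, Klrb1c, Klre1 and Eomes. Ncr1 and Klre1 met the filter on dim signals through D0 alone, which favours that pattern in these genes.

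Gzma, which encodes granzyme A, the tryptase of the killing granule, had the largest decrease of all 14735 genes at each of the 3 doses. Its log2 ratio was 5.86, 3.98, 5.55, 4.22 and 4.27 in D0 mice 1 to 5. It was 4.04, 2.17, 2.70 and 3.79 in D1 mice 21, 22, 24 and 25. Mouse 21 overlapped the lowest control, and the other 3 lay below all controls. The ratio was 3.40, 2.59, 1.67, 2.86 and 2.72 in D2 mice 23, 26, 28, 29 and 30. In D3 mice 31, 32, 34 and 35 it was 1.78, 2.02, 2.00 and 1.03. Every D2 and D3 mouse was below every D0 mouse, and every D3 mouse was also below every D1 mouse. The log2 changes against D0 at the 3 doses were -1.60 ± 0.43 (SE), -2.13 ± 0.40 and -3.07 ± 0.43, and limma's adjusted p were 0.0365, 0.00731 and 0.00016. On the linear scale these are decreases of 3.03, 4.38 and 8.40 times. Within slides 1, 2 and 3 the D3 change was -3.02, -3.32 and -3.34, the last 2 sharing mouse 35 through its 2 arrays, the D2 change was -2.79, -2.09 and -0.88, and the D1 change was -1.81, -2.18 and -0.49. The D1 call was lost when control 1 or 3, or D1 mouse 22 or 24, was left out (adjusted p = 0.0912 to 0.123), in a fit of only the 2 groups (-1.60, adjusted p = 0.0782) and in the scanner software's background-subtracted signals (-1.72, adjusted p = 0.0621). It held under another background correction, normexp (-1.57, adjusted p = 0.0359). At D3 the change lay between -3.27 and -2.80 with any 1 mouse left out.

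Ccl5, the chemokine RANTES made by activated T cells and NK cells, had the same order of doses. Its log2 ratio was 0.79, -0.49, -0.11, -0.76 and -0.54 in D0 mice 1 to 5, and -0.82, -1.91, -1.86 and -0.89 in the 4 D1 mice. It was -1.35, -1.30, -1.65, -1.73 and -1.56 in the 5 D2 mice and -1.84, -1.58, -1.73 and -2.43 in the 4 D3 mice. No dosed mouse reached the lowest control, but mice 21 and 25 of D1 came close to it. The log2 change was -1.15 ± 0.28 at D1, -1.30 ± 0.26 at D2 and -1.68 ± 0.28 at D3 (adjusted p = 0.0219, 0.0116 and 0.000715), or 2.22, 2.45 and 3.19 times lower. Among the decreases of all genes, that of Ccl5 ranked 8 at D1, 11 at D2 and 5 at D3. Within slides 1, 2 and 3 its D3 change was -1.86, -1.68 and -1.84, again with mouse 35 on slides 2 and 3, and its D1 change was -1.52, -1.43 and -0.35. Leaving out control 3 or D1 mouse 22 or 24 ended the D1 call (adjusted p = 0.0523 to 0.0774), as did a fit of only the 2 groups (-1.15, adjusted p = 0.0728).

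Prf1 encodes perforin, the pore former without which granzymes cannot enter a target. Its log2 ratio was 0.72, 0.32, 0.91, 0.40 and 0.50 in D0 mice 1 to 5, and 0.44, 0.14, 0.10 and 0.45 in the D1 mice. It was 0.25, -0.13, -0.17, 0.05 and -0.01 in the D2 mice and -0.18, -0.16, -0.01 and -0.02 in the D3 mice. All D2 and D3 mice were below all controls, and the D1 mice overlapped them. The log2 change was -0.29 ± 0.12 at D1, -0.57 ± 0.11 at D2 and -0.66 ± 0.12 at D3 (adjusted p = 0.174, 0.00887 and 0.00134). The D2 change, 1.49-fold, fell short of the fold limit alone, and passed it when control 2, 4 or 5 or D2 mouse 23 or 29 was left out. The D3 call was lost by the fold limit without D0 mouse 3 (-0.58, adjusted p = 0.00382).

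The remaining 2 effectors did not pass the test at any dose. Gzmb encodes granzyme B, which cleaves caspases in the target. Its log2 ratio was 1.18, 0.43, 1.12, 0.46 and 0.41 in D0 mice 1 to 5 and 0.47, 0.38, 0.51 and 0.37 in the D3 mice. The D3 mice thus sat among D0 mice 2, 4 and 5, and D0 mice 1 and 3 stood apart above. The D1 mice ran from 0.14 to 0.79 and the D2 mice from 0.16 to 0.50. The change was -0.16 ± 0.16, -0.36 ± 0.15 and -0.29 ± 0.16 at D1, D2 and D3 (adjusted p = 0.638, 0.27 and 0.28). Nkg7, a membrane protein of the granule that is needed for its release, had a bright probe at 2.01, 0.93, 2.03, 1.84 and 1.78 in the D0 mice and 1.02, 1.24, 1.91 and 1.11 in the D3 mice. D0 mouse 2 was below all D3 mice. The D1 mice ran from 0.83 to 1.66 and the D2 mice from 0.95 to 1.71, within or next to the controls' range. The change of this probe was -0.40 ± 0.23, -0.34 ± 0.22 and -0.40 ± 0.23 (adjusted p = 0.352, 0.517 and 0.29), and that of the second Nkg7 probe was -0.25, -0.28 and -0.14.

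Among the receptor and transcription factor genes none passed both limits at any dose, but Eomes was lower by adjusted p at all 3 doses and Klrb1c at D3. Eomes is the T-box factor that NK cells and effector CD8 T cells need. Its log2 ratio was 1.02, 0.58, 0.72, 0.79 and 0.64 in D0 mice 1 to 5, 0.29, 0.18, 0.17 and 0.35 in the D1 mice and 0.59, 0.23, 0.23, 0.34 and 0.38 in the D2 mice. In the D3 mice it was 0.03, 0.37, 0.33 and 0.09. Every D1 and D3 mouse was below every control, and D2 mouse 23 overlapped the lowest of them. The change was -0.50 ± 0.10, -0.40 ± 0.09 and -0.55 ± 0.10 (adjusted p = 0.00654, 0.0306 and 0.00162). These are decreases of 1.42, 1.32 and 1.46 times, and the red signal was above background in 5 of 5 D0, 2 of 4 D1, 4 of 5 D2 and 2 of 4 D3 mice. In the scanner software's background-subtracted signals Eomes missed the test at each dose (adjusted p = 0.0596, 0.788 and 0.0833). With 1 mouse left out, its adjusted p at D2 reached 0.0799.

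Klrb1c encodes NK1.1, a lectin-like activating receptor by which NK cells are sorted in some strains. Its log2 ratio was 1.12, 0.62, 1.22, 0.74 and 0.77 in D0 mice 1 to 5 and 0.10, 0.52, 0.42 and 0.26 in the D3 mice, so that all D3 mice were below all controls. The D1 mice, at 0.68 to 0.83, and the D2 mice, at 0.32 to 0.82, overlapped D0. The change was -0.11 ± 0.13 at D1, -0.30 ± 0.12 at D2 and -0.57 ± 0.13 at D3 (adjusted p = 0.679, 0.221 and 0.00572). At 1.48-fold the D3 change was just under the limit, and it passed when control 2, 4 or 5 or D3 mouse 32 or 34 was left out. Eomes at D3 likewise passed when control 2 or D3 mouse 32 or 34 was left out. Only 1 of 4 D3 mice had Klrb1c above background, against 5 of 5 D0 mice. The match of its probe to the gene of this strain was not checked.

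Ncr1, the NKp46 receptor that marks NK cells in every mouse strain, ran from 0.23 to 0.97 in D0, -0.10 to 0.54 in D1, 0.10 to 0.39 in D2 and 0.13 to 0.29 in D3. The change was -0.32 ± 0.14, -0.31 ± 0.13 and -0.38 ± 0.14 at the 3 doses (adjusted p = 0.207, 0.263 and 0.0895), and 5 of 5 D0 but 1 of 4 D3 mice were above background. Ncr1 met the filter on dim signals through D0 alone, which favours that difference. Klrd1 encodes CD94, the partner chain of the NKG2 receptors. It was above background in all mice and ran from 1.07 to 1.47 in D0, 0.74 to 1.29 in D1, 0.71 to 1.78 in D2 and 0.53 to 1.45 in D3. Its D2 mice were the most widely spread, and its change was -0.30 ± 0.20, -0.03 ± 0.19 and -0.35 ± 0.20 (adjusted p = 0.45, 0.973 and 0.285). Klre1, a lectin-like receptor of NK cells, was above background in 4 of 5 D0 mice, 1 of 4 D1 mice and no D2 or D3 mouse. There it has no measured level. Its D0 mice were at 0.76, 0.16, 0.93, 0.16 and 0.20. Its mean red signal at D0 was 1.30-fold above the dimmest signals above background at D2, and 1.36-fold above those at D3. Klre1 met the filter on dim signals through D0 alone, so these values set no floor on its decrease. Its ratio, on which the test runs, gave smaller changes and missed the test (adjusted p = 0.357 and 0.107). Without D0 mice 1 and 3 the ratio's change was -0.04 and -0.13, so the difference rests on those mice.

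Counting mice rather than probabilities, all mice of the dosed group lay below all D0 mice in 2 members at D1 (Ccl5 and Eomes), 3 at D2 (Gzma, Prf1 and Ccl5) and 5 at D3 (those 3 with Klrb1c and Eomes). The same held for 4.19%, 1.6% and 7.17% of all probes tested.

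Whether the effectors or the other 5 genes changed more depended on the signal used. By ratio, the median log2 change of the 5 effectors was -0.40, -0.57 and -0.66 at D1, D2 and D3, and that of the 5 receptor and transcription factor genes was -0.30, -0.30 and -0.40. Without Ncr1 and Klre1 the latter was -0.30, -0.30 and -0.55. In the scanner software's processed signals, which are corrected for background and dye, the effectors' medians were -0.50, -0.87 and -1.02 and those of the other 5 were -0.74, -0.39 and -1.24, so that the order turned at D1 and D3. Ncr1 and Klrb1c were each above background in 1 of 4 D3 mice and Klre1 in none, so the receptor medians have no firm size in either signal.

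Single receptor genes moved with the signal as well. Background was not subtracted in the ratios, which follows the study's methods. The D3 change of Klrb1c was -0.57 in the ratios, -2.08 in the processed signals (adjusted p = 0.0386) and -0.45 after normexp (adjusted p = 0.00899). That of Klrd1, above background in all mice, was -0.35, -1.15 (adjusted p = 0.122) and -0.32 in the same order, and that of Eomes was -0.55, -1.24 (adjusted p = 0.0833) and -0.55. The processed signals thus stood apart from both other settings. Among the effectors, Gzma was at -3.07, -3.36 and -3.06, Ccl5 at -1.68, -1.74 and -1.67 and Prf1 at -0.66, -1.02 and -0.65. The cause of these differences was not tested.

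**Figure D2:**
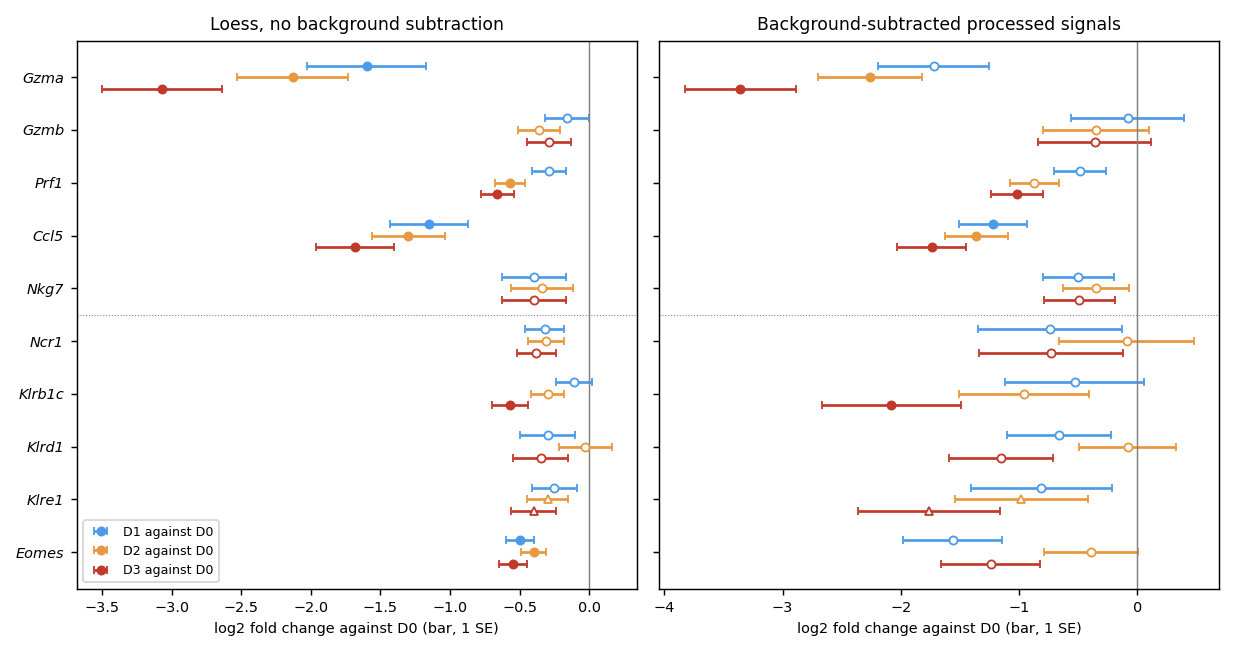
Log2 fold change against D0 (x axis; bars, 1 SE) for the 10 members (y axis) at D1, D2 and D3, from ratios without background subtraction (left) and from background-subtracted processed signals (right). Filled symbols have a limma adjusted p of at most 0.05, and triangles mark a group with no mouse above background, where the fitted value gives only a direction. At D3 the receptor genes and Eomes, below the dotted line, lie further from 0 on the right, with Klrb1c at -0.57 on the left and -2.08 on the right, whereas at D2 Ncr1 lies nearer to 0 there (-0.31 and -0.09) and Eomes hardly moves (-0.40 and -0.39).

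Over the 4 doses, a linear trend was found for 3 members, beside 0.574% of all probes with a decreasing trend. The fitted log2 change from D0 to the top dose was -2.94 for Gzma (adjusted p = 0.000473), -1.55 for Ccl5 (0.0049) and -0.67 for Prf1 (0.00287). That of Klrb1c, -0.58 (0.00466), was just under 1.5-fold and passed it in 7 of the 18 fits that each left out 1 mouse, and Prf1 dropped out of the called genes without D0 mouse 3. That of Eomes was -0.47 (0.0297). Between doses no member passed limma's test: D2 against D1, D3 against D2 and D3 against D1 gave 0 of 10 each, and 0 under every other processing run. Of all probes, 0%, 0.106% and 0.145% passed. By an unadjusted p under 0.05, 1, 2 and 3 members were lower, beside 5.89%, 5.92% and 3.88% of all probes. Gzma had the widest gap between D3 and D1, -1.47 ± 0.45 (unadjusted p = 0.00398, adjusted p = 0.308), and all D3 mice lay below all D1 mice in Gzma, Prf1 and Klrb1c, as in 2.43% of all probes.

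Within a dose group, a mouse high in 1 member tended to be high in others. After each group's mean was taken away, all 45 pairs of members had a correlation above 0 across the 18 mice, with a median Pearson r of 0.615 (0.0705 to 0.897), and the pair Gzmb and Ncr1 had the highest. Over all pairs of the 14735 genes tested, 50.6% had a correlation above 0, the median r was 0.006, and 2.58% reached the members' median. Effector pairs had a median of 0.635, pairs across the roles 0.636 and pairs of receptor genes 0.47. All points come from the same arrays, so noise of an array is shared by all pairs. D0 mouse 1 was above its group's mean in 10 of 10 members and D0 mouse 3 in 9 of 10, by 0.44 and 0.32 on average, whereas D0 mouse 2 was below it in all 10, by 0.35 on average. In D2, mouse 28 was below the mean in all 10. D0 mouse 2 also had the lowest mean of the controls for B cell genes (0.86 against 1.61 to 1.94), T cell genes (-0.18 against 0.08 to 0.23) and pan-leukocyte genes (-0.04 against 0.25 to 0.60). Without D0 mice 1 and 3, an alternative chosen after seeing the data, no member passed the test at D1 or D2, and Gzma (-2.45, adjusted p = 0.00211) and Ccl5 (-1.30, adjusted p = 0.00584) did at D3.

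**Figure D3:**
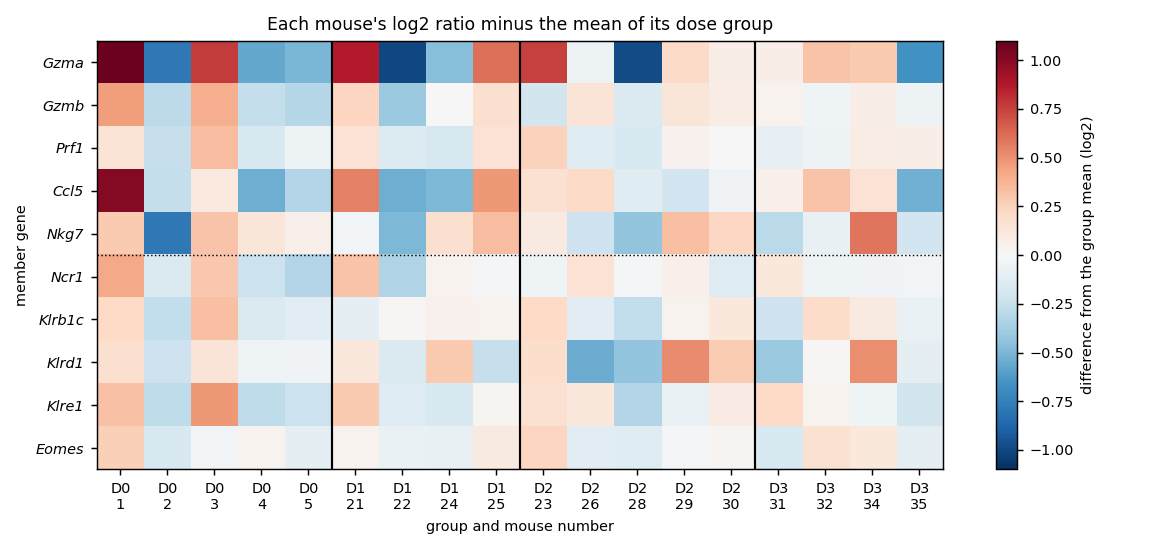
Difference of each mouse's log2 ratio from the mean of its own dose group (colour, log2 scale) for the 10 members (y axis) in the 18 mice (x axis). Columns tend to have 1 colour: D0 mice 1 and 3 are red from top to bottom apart from Eomes in mouse 3, and D0 mouse 2 and D2 mouse 28 are blue.

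Outside the members, the 6 genes whose ratios over the 18 mice were most like the members' mean were Klra7 (r = 0.95), Klra16 (0.938), Klra4 (0.918), Pkp3 (0.903), Pacsin1 (0.887) and Tbx21 (0.878). With the group means removed they were Klra7 (0.903), Klra16 (0.879), E330020D12Rik (0.865), Skor1 (0.852), Klra4 (0.823) and Pkp3 (0.818). Klra genes encode the Ly49 receptors by which mouse NK cells read class I molecules, and Tbx21 encodes T-bet.

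Of the 6 Ly49 genes tested, 3 fell at D1, 3 at D2 and 4 at D3, none rose, and the list's median change was -0.56, -0.61 and -0.79. Klra7 met the filter on dim signals through D0 alone, and the other 5 had medians of -0.62, -0.68 and -0.95 with 3 of them called at each dose. At D3 Klra16 changed by -1.72 ± 0.28 (adjusted p = 0.000737), Klra4 by -1.67 ± 0.25 (3e-04) and Klra7, above background in 5 of 5 D0 but 1 of 4 D3 mice, by -0.64 ± 0.16 (0.0118). Klra8 was above background in no D3 mouse, and its red signal alone was at least 2.05-fold lower there against the dimmest signals above background. Its ratio changed by -0.95 (adjusted p = 0.000429), which is less than that. A second, dimmer Klra16 probe was at -0.43 at D3 and missed the test (adjusted p = 0.16). Ly49 genes are near-identical copies that vary between strains, so a probe may read more than 1 of them. Which of them the strain used here carries was not checked.

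Few genes of the other lists for NK cells passed the test. Of the 12 further NK receptors and adaptors tested, 0 passed both limits at any dose. Klrg1, a receptor of mature NK cells (-0.58, adjusted p = 0.00563), and Klrb1a (-0.49, adjusted p = 0.0228) were lower by adjusted p at D3, but Klrb1a, above background in 1 of 4 D3 mice, met the filter on dim signals through D0 alone. Itga2, the NK cell integrin CD49b, was higher (0.35, adjusted p = 0.0275). Of 14 cytokine and homing receptors, 2 fell at D3: Il18r1, a chain of the receptor for the NK activator IL-18 (-0.70 ± 0.10, adjusted p = 0.000174), and S1pr5, by which NK cells leave tissue (-0.61 ± 0.15, adjusted p = 0.0114). Il18r1 had also fallen at D2 (-0.82, adjusted p = 5.48e-05). By adjusted p alone 3 more of the list were lower at D3, and 2 were higher, Il2rg (0.56, adjusted p = 0.0105) and Il12rb1 (0.33, adjusted p = 0.0417; second probe 0.15, adjusted p = 0.421), chains of receptors for NK growth factors and for IL-12. Among the 3 lower ones, Il15ra (-0.30, adjusted p = 0.0266) and Itgam (-0.36, adjusted p = 0.0164) had other probes that went up. These were at 0.21 (adjusted p = 0.11) for Il15ra, and at 0.14 (adjusted p = 0.302) and 0.55 (adjusted p = 0.0299) for Itgam. Of 14 further transcription factors, Tbx21 (-0.71 ± 0.15, adjusted p = 0.00391) and Nfil3, needed for NK development (-0.66 ± 0.16, adjusted p = 0.01), fell at D3. Nfil3 had also fallen at D2 (-0.93, adjusted p = 0.00181). Prdm1, the repressor Blimp-1, rose at D2 (0.71, adjusted p = 0.00416) and D3 (0.97 ± 0.13, adjusted p = 0.000117). Runx3, a RUNX factor of cytotoxic cells, was at 0.05 (adjusted p = 0.772).

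Among the other granule genes, Gzmk (0.06) and Gzmm (0.24) did not pass the test at D3, and the remaining 6 granzymes on the list were too dim to test. Of 11 genes for granule content, loading and release, none fell at any dose and 1 rose at all of them: Srgn, the proteoglycan serglycin that packs granzymes but is also made by other blood cells, by 0.81, 0.81 and 1.24 (adjusted p = 0.00106, 0.000502 and 1.77e-06). The list's median at D3 was 0.12. Among 6 death ligands and secreted factors, Ccl4, a chemokine that shares a receptor with Ccl5, fell at D1, D2 and D3 (-0.63, -0.70 and -0.73, adjusted p = 0.0411, 0.0275 and 0.0093), and the death ligand Tnfsf10 (TRAIL) rose at D3 (0.75 ± 0.17, adjusted p = 0.0081). Of 10 cytokines and ligands that act on NK cells, Cx3cl1, the ligand of an NK homing receptor, fell at D3 (-0.65 ± 0.11, adjusted p = 0.000683), and Il15, their survival factor, was higher by adjusted p alone (0.32, adjusted p = 0.0368).

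**Figure D4:**
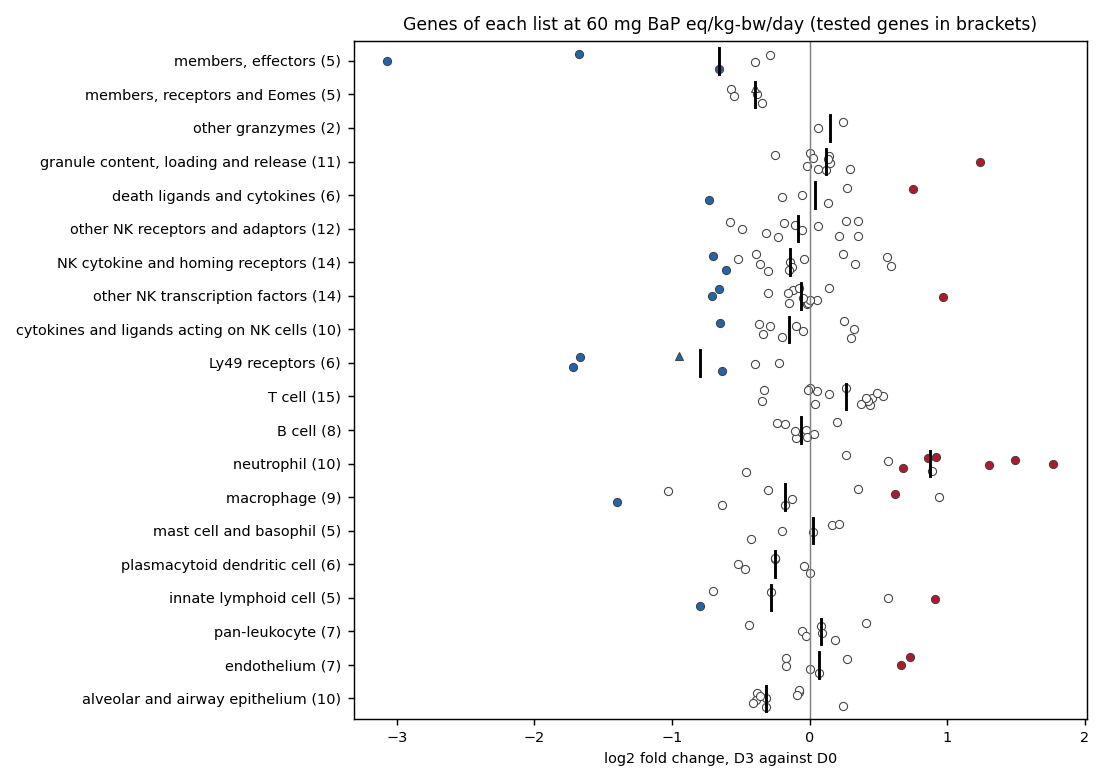
Log2 fold change of D3 against D0 (x axis) for every tested gene of the members, the pathway lists and the cell type marker lists (y axis; genes tested in brackets). Blue and red points passed both limits, white points did not, triangles mark genes above background in no D3 mouse, and the black line is the list's median. The effectors' and Ly49 medians lie at -0.66 and -0.79, the T cell median at 0.26 and the neutrophil median at 0.88.

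Markers of other leukocytes were read on the same arrays. Of 15 T cell genes 0 passed the test at any dose, with a median of 0.26 at D3, Cd3e at 0.05 and Cd8a at 0.45 (adjusted p = 0.833 and 0.0577). The mean over the T cell genes ran from -0.18 to 0.23 in D0 and from 0.06 to 0.58 in D3 mice. Of 8 B cell and 7 pan-leukocyte genes, 0 passed at any dose, with medians of -0.07 and 0.08 at D3, although Laptm5 of the latter was lower at D3 by adjusted p alone (-0.44, adjusted p = 0.0278; second probe -0.18, adjusted p = 0.505).

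Of 10 neutrophil genes, 1 rose at D1 and D2 and 6 at D3, led by S100a8 (1.77 ± 0.33, adjusted p = 0.00178) and Mmp8 (1.49 ± 0.16, adjusted p = 6.7e-06), and none passed both limits downward. A second, dimmer Camp probe passed both limits upward at D1 (1.04, adjusted p = 0.0458) and D2 (1.16, adjusted p = 0.0293). The brighter Camp probe missed the test there (adjusted p = 0.0814 and 0.083). Csf3r, the receptor for the neutrophil growth factor, was lower by adjusted p alone at D1 (-0.37, adjusted p = 0.0445) and D3 (-0.46, adjusted p = 0.00655), with all 4 mice of either group below all controls. The mean over the list ran from 1.35 to 2.12 in D0 and from 1.98 to 3.35 in D3 mice.

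Some markers of other cells were lower at the same doses as the members. Of 9 macrophage genes, Siglecf, a marker of alveolar macrophages, fell at D2 (-1.05, adjusted p = 0.036; second probe -0.40, adjusted p = 0.0919), and Chil3 was at -1.39 there (adjusted p = 0.0584) with all 5 mice below all controls. The mean over the macrophage genes ran from 2.63 to 2.79 in D0 and from 2.08 to 2.54 in D2 mice, so that D2 lay below all controls, and the D3 mice overlapped them. At D3, Krt79 fell (-1.40, adjusted p = 3.57e-06) and Msr1 rose (0.62, adjusted p = 0.000612; second probe 0.35, adjusted p = 0.0948). Of 6 plasmacytoid dendritic cell genes, Klk1 fell at D2 (-0.68, adjusted p = 0.0293), and the probes of Siglech, a receptor that marks these cells, disagreed. The brighter one was lower by adjusted p alone at D1 (-0.44, adjusted p = 0.021) and D3 (-0.52, adjusted p = 0.00342). The other fell past both limits at D1 (-0.95, adjusted p = 0.00259), D2 (-1.38, adjusted p = 4.03e-05) and D3 (-1.33, adjusted p = 4.1e-05). The mean over that list, with the brighter probe, ran from 0.30 to 0.76 in D0 and from -0.01 to 0.45 in D3 mice, which overlap. Among the innate lymphoid genes, Il1rl1, the receptor for IL-33, fell at D3 (-0.80, adjusted p = 0.000934; second probe -0.34, adjusted p = 0.185). Of 5 mast cell and basophil genes, 0 passed at any dose. Of 7 endothelial genes 2 rose at D3, and of 10 epithelial genes 0 passed at any dose. The part of these other cells in the members' ratios was not tested.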

How the data were processed

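Lung RNA of 18 mice was measured on 19 Agilent 2-colour arrays. Deposited scanner files give the median intensity of each spot, not normalized, and a processed intensity after the scanner software's background and dye corrections. The series' value table holds the authors' normalized log2 ratios (r with the ratios used here, 0.995 to 0.998 per array). The file headers name another release of the scanner software than the methods. Median signals without background subtraction were normalized by loess (span 0.3), and control and outlier spots were left out. Per array, 54.5% to 64.7% of spots were above background in red. Probes above background in at least 4 mice of 1 group were fitted with limma 3.58.1 (R 4.3.3) in 1 model over 4 groups. The test was checked on simulated data with separate noise for each probe, which leaves out variation that probes share. Where a gene had several probes, the tested probe with the brightest red signal stood for it. From each list, up to 4 genes that passed at D3 were named by size of change; other genes named from the lists, and any named for missing the test, were chosen after their values were seen. No dyes were swapped, so ratios are open to dye bias, and the number of arrays limits the precision. The members, lists and tests were chosen with earlier results of these data known, and 1 item is not reported here.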

Additional observations from a re-analysis of the deposited data

Results flagged for a closer look

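Of 44 groups of mice tested over the 11 member probes, 2 held a mouse far from the others of its group, where chance alone gives about 5% of groups. For the brighter Nkg7 probe, D0 mouse 2 had the lowest log2 ratio, 0.93, and the next was 1.78, a gap of 0.776 of the group's range. For Ncr1, D3 mouse 31 had the highest, 0.29, and the next was 0.14, a gap of 0.912 of the range; its red signal was not above background.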

How the results depend on the processing

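Gzma fell at D3 under every alternative run (-3.36 to -2.45, adjusted p at most 0.00775). Members called were 2, 2, 3 and 3 at D1, D2, D3 and over the trend. Median centring gave 0, 0, 1 and 1, the processed signals 1 at D1, a fit of only the 2 groups compared 0 at D1, the red channel alone 5 at D3 and 5 over the trend, adjusted p alone 4 at D2, 5 at D3 and 5 over the trend, and leaving out D0 mice 1 and 3 together 0 at D1 and 0 at D2. Leaving out each mouse in turn gave 0 to 2, 2 to 3, 2 to 5 and 2 to 4. The 5 at D3 in the red channel alone included Ncr1 (-0.64, adjusted p = 0.00367), which met the filter on dim signals through D0 alone. That setting called 667 of all probes at D3. Requiring signal above background in every mouse left 5 members to test. Klrd1 at D2 changed sign under median centring (0.05), in the red channel alone (0.02) and without D0 mouse 1 (0.02), D0 mouse 3 (0.01), D2 mouse 26 (0.11) or D2 mouse 28 (0.08), within a range of -0.15 to 0.11. Without D0 mice 1 and 3 together, Gzmb at D1 (0.13) and D3 (0.00), Klrb1c at D1 (0.07), Klre1 at D1 (0.02) and Klrd1 at D2 (0.08) did. The causes were not tested. Within slides, 82 of 90 member changes were below 0, D3 on slide 3 being the second array of mouse 35. They are not separate results, because the members vary together and the doses share the D0 mice of each slide. Ncr1 and Klre1 among them met the filter on dim signals through D0 alone, and the share over all probes was not taken. Median centring moved the median of all probes by 0.165, 0.127 and 0.065 and left 12, 18 and 97 of all probes called against 328, 194 and 754, with 0%, 11.1% and 16.5% of them lower against 43.9%, 30.4% and 50.4%. The processed signals called 514 at D1 and 1250 at D3, 56.4% and 60.9% of them lower, adjusted p alone 1468, 647 and 3843, and the fit without D0 mice 1 and 3 called 192 at D1. No paired analysis was possible because the groups share no mouse number. With the slide as a block, members called were 2, 2, 3 and 3. Signal over background limits Ncr1, Klrb1c, Klre1 and Eomes, each not above background in at least 2 of 4 D3 mice.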
